A study of Homo sapiens with 30 samples.

Results

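The results concern 10 genes of germinal centre B-cell migration and zones: S1PR1, S1PR2, GNA13, CXCR4, CXCR5, CCR7, GPR183, RGS1, RGS13 and CD83. The RefSeq table for GRCh38.p14 holds 59792 genes. Every deposited H3K4me3 or H3K27ac peak that overlapped 1 of these genes or lay within 5 kb of it was taken as a member. That gave 20 of 21268 H3K4me3 peaks and 65 of 63580 H3K27ac peaks, with no peak shared by 2 of the genes. The genes were listed by name, not by their values, but with earlier results of these data known. The chromatin came from OCI-Ly1, an established human cell line of germinal centre type diffuse large B-cell lymphoma. Cultures received JIB-04, a drug-like compound that blocks histone demethylases with a Jumonji domain, at 150 nM or 500 nM, or 0.01% DMSO as vehicle. All 3 groups share the same parental cells with no engineered allele, and the length of treatment is not given in the sources used here. Each of the 3 groups holds 2 libraries per mark, 12 libraries in all, and each group is a single cell line with no stroma, T cells or follicular dendritic cells. A further 18 libraries of the series (input, H3K9me2 and H3K9me3) were not analysed here.

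Germinal centre B cells are held in place, moved between zones and released by G protein-coupled receptors that read lipid and chemokine gradients. S1PR1 draws lymphocytes towards sphingosine-1-phosphate in blood and lymph, whereas S1PR2 signals through Gα13, the product of GNA13, to inhibit migration and hold the cells at the follicle centre. CXCR4 positions cells in the dark zone, CXCR5 brings them into the follicle, and RGS proteins shorten the G protein signals of these receptors. H3K4me3 marks promoters and H3K27ac marks active promoters and enhancers. Jumonji enzymes include demethylases of H3K4 and of H3K9.

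RefSeq promoter windows of 300 bases (250 before to 50 after an annotated start, GRCh38.p14) were matched for 9 of the 10 genes, giving 13 windows; CCR7 had none. The 5 windows below are shown because the H3K4me3 peak over them changed at 500 nM. It rose at S1PR1 and RGS1 and fell at S1PR2, RGS13 and GPR183. H3K4me3 was counted over whole peaks, not over the windows. CpG dinucleotides, which H3K4 methyltransferase complexes can recognise through CXXC domains, are in capitals, and each strand is read 5′ to 3′. The S1PR1 window is chr1:101236769-101237068 on the plus strand, the RGS1 window chr1:192575523-192575822 on the plus strand, the S1PR2 window chr19:10231282-10231581 on the minus strand, the RGS13 window chr1:192635897-192636196 on the plus strand, and the GPR183 window chr13:99307350-99307649 on the minus strand.
S1PR1: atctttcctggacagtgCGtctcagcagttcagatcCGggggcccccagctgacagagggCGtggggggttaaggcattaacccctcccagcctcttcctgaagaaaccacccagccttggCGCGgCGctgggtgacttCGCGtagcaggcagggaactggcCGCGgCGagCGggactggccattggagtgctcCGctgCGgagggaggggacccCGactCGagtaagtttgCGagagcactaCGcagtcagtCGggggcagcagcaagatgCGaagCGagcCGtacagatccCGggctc
RGS1: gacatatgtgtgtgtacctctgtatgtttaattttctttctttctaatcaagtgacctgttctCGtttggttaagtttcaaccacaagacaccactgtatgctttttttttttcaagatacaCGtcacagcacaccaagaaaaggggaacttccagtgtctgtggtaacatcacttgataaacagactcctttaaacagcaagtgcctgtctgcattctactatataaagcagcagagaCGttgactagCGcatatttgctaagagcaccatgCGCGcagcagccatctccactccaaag
S1PR2: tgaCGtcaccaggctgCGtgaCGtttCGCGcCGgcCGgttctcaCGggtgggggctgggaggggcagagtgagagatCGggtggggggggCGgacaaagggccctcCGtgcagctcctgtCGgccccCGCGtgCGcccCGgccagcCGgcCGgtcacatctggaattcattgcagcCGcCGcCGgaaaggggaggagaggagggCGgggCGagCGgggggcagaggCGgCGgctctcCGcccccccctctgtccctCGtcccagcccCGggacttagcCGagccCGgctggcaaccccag
RGS13: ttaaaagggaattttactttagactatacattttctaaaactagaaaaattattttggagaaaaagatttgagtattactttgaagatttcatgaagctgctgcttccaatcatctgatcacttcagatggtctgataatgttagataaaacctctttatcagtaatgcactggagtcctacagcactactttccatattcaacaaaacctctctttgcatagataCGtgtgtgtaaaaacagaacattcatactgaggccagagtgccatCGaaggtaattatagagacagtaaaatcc
GPR183: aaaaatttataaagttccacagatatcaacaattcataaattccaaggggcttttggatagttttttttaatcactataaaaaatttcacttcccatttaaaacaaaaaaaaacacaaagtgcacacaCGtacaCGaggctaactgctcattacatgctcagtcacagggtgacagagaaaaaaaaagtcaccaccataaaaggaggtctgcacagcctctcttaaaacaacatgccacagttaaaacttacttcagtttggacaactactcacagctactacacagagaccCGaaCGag

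The S1PR1 and S1PR2 windows were rich in CpG, with 23 and 31 dinucleotides, against a median of 14 over all 35116 windows in the table. RGS1, RGS13 and GPR183 had 6, 2 and 4. Windows under peaks that rose and windows under peaks that fell were thus found at both high and low CpG content. The GNA13 windows, also under a peak that fell, held 47 CpG at the upstream start and 19 at the other. Under peaks that were not called, the upstream CXCR4 window held 27 and the 2 CD83 windows 6 and 53. The only CXCR5 window, chr11:118893142-118893441 on the plus strand, held 9 and lay in no peak of either mark; the H3K4me3 peak of CXCR5 lay upstream of it. A TATA box (TATAAA, searched on both strands) was found in 4 of the 13 windows, those of RGS1 and GPR183 and 1 window each of CXCR4 and CD83, against 11.5% of all windows. A GC box (CCGCCC) was found in 6 of the 13, against 45.0%. The cyclic AMP response element core (TGACGT) was found in 2, with 3 matches in S1PR2 and 1 in RGS1, against 7.98%; a palindromic site counts once on each strand. Part of the octamer (ATGCAAA) was found in RGS13 only, against 4.46%, and the E-box CACGTG and the ETS site CCGGAAG in none, against 7.26% and 10.3%. The GC box, E-box, ETS and cyclic AMP motifs each contain a CpG, so their frequency moves with CpG content.

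Counts in peaks totalled 9686420 to 12327122 per H3K4me3 library and 4360660 to 5410292 per H3K27ac library, with a median per peak of 263 to 328 and 21 to 24. Levels are given as CPM, counts scaled to a common total over tested peaks, after scaling between libraries by the trimmed mean of M-values (TMM). A rise or fall is therefore relative to the other peaks, and a shift of the whole mark cannot be seen. The pair of 150 nM H3K4me3 libraries differed by less than counting error (chi-square per degree of freedom 0.923), as did DMSO replicate 1 and 150 nM replicate 1 (0.952). Because libraries with different labels agreed as closely, the 150 nM pair was kept as 2 libraries, and summing them into 1 sample left the member counts at 8, 7 and 0 for the comparisons below. The 150 nM H3K27ac pair stood further apart (2.39) than the DMSO and 500 nM pairs (1.32 and 1.25). Some of the results that rest on it are also given without 1 of its replicates. Nothing in the labels says that replicates were separate cultures, so p-values measure the spread between these libraries, which may be technical. Of 8 B-cell markers all had an H3K4me3 peak, and their summed level was 1508 to 1552 CPM in DMSO and 1376 to 1405 CPM at 500 nM. T-cell markers had a peak at 3 of 6 genes (83.7 to 88.1 CPM in DMSO, 83.0 to 84.9 CPM at 500 nM), with none at CD3E, CD4 or TRAT1. Myeloid markers had 1 at CD14 (9.72 to 11.8 CPM, then 16.5 to 17.8 CPM), with none at LYZ, CSF1R, ITGAM or MPO. Stromal markers had a peak at 2 of 3 genes (4.71 to 5.23 CPM, then 8.37 to 9.44 CPM) and epithelial markers at 3 of 4 (69.5 to 72 CPM, then 64.0 to 67.3 CPM), with none at COL1A2 or CDH1. The epithelial sum is nearly all EPCAM, which was lower at 500 nM (log2 fold change -0.13), while KRT8 and KRT18 share 1 weak peak that was higher (1.81). The part of other cell types in the results was not tested.

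At 500 nM against DMSO, H3K4me3 rose over the starts of S1PR1 and RGS1 and fell over the starts of S1PR2, GNA13, CXCR5, GPR183 and RGS13 and over a second peak inside S1PR2. In all, 8 of the 20 member peaks passed the test, 2 higher and 6 lower, where 39.4% of the 20402 tested peaks did (20.7% higher and 18.7% lower). The share of members called, 40%, was thus that of the background. The split over all peaks depends on the scaling: 52.5% of the calls were higher with TMM and 63.1% with total counts. With loess offsets on abundance, 10 of the 20 members and 33.8% of all peaks were called. The median log2 fold change was -0.0059 over the members and -0.0063 over all tested peaks. Tests were edgeR's quasi-likelihood test over all 6 libraries of the mark with Benjamini-Hochberg adjustment over all tested peaks. In bulk chromatin, fewer cells carrying a mark and less of it per cell cannot be told apart. At 500 nM against 150 nM, 7 of the 20 passed, 1 higher and 6 lower, where 39.2% of all peaks did; the 2 comparisons share the 500 nM libraries. There 52.5% of all calls were higher with TMM and 61.6% with total counts, and loess offsets called 11 members and 34.5% of all peaks. At 150 nM against DMSO none passed, where 0% of all peaks did; 3 of the 20 had an unadjusted p under 0.05 in edgeR, as had 4.66% of all peaks, and DESeq2 called none. With 2 libraries a group, complete separation was common: the 500 nM and DMSO libraries did not overlap at 15 of the 20 member peaks and at 68% of all tested peaks, the 500 nM and 150 nM libraries at 15 and 68.8%, and the 150 nM and DMSO libraries at 8 and 33.9%.

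**Figure D1:**
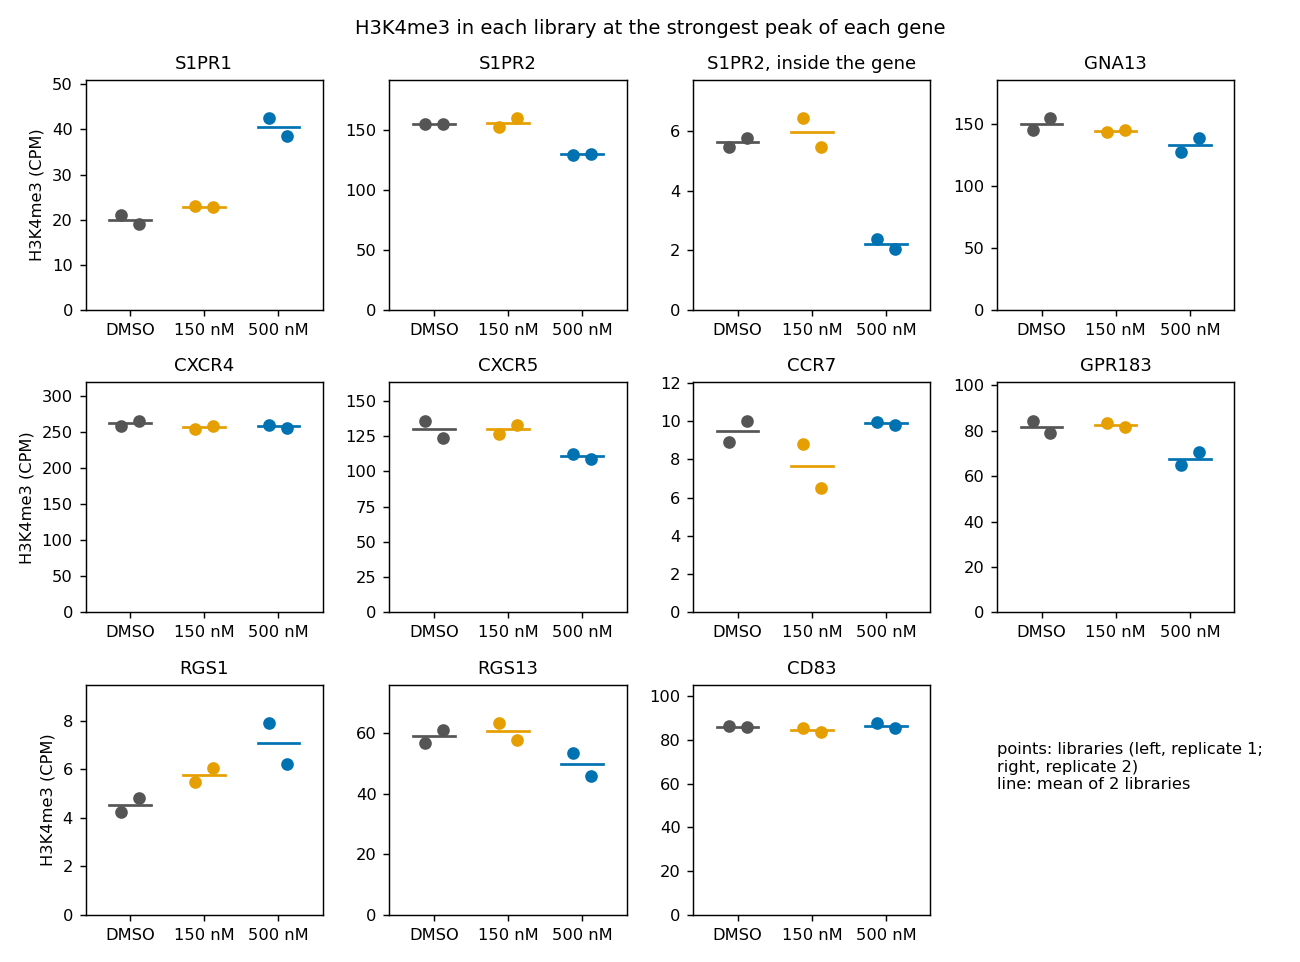
H3K4me3 level (CPM, vertical axis from 0) in each library at the strongest peak of each of the 10 genes and at the interior peak of S1PR2; points are libraries and lines are group means for DMSO, 150 nM and 500 nM JIB-04. The 500 nM libraries of S1PR1 (38.5 and 42.5 CPM) lie above all others, those of both S1PR2 peaks below, and at CXCR4 and CD83 the 500 nM libraries overlap with both other groups.

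S1PR1, the egress receptor, had the largest rise among the members. Over its start (chr1:101235725-101237884, 2160 bp) the H3K4me3 level was 21.1 and 19.0 CPM in the DMSO libraries, 23 and 22.7 CPM at 150 nM, and 42.5 and 38.5 CPM at 500 nM. Both 500 nM libraries lay far above the other 4, and both 150 nM libraries lay slightly above DMSO. The means were 20.0 ± 1.49, 22.9 ± 0.223 and 40.5 ± 2.83 CPM (SD, n = 2 each). The level was thus 2.02-fold higher at 500 nM than in DMSO (log2 fold change 1.02, SE 0.081, 95% interval 0.85 to 1.18, adjusted p = 3.39e-16). It was 1.78-fold higher than at 150 nM (0.83, SE 0.079, adjusted p = 2.43e-13). The 150 nM difference from DMSO did not pass (0.19, unadjusted p = 0.0483, adjusted p = 1.00). The peak also covers the start of S1PR1-DT, a divergent transcript, and the counts do not separate the 2 starts. A small peak inside the gene (chr1:101238080-101238466), with 7 to 23 counts per library, gave 0.92 (SE 0.44, adjusted p = 0.0942), and 1.27 without 500 nM replicate 2 (adjusted p = 0.0335).

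S1PR2, the receptor that confines cells to the follicle centre, moved the other way at its start and more strongly inside the gene, which is on the minus strand. The start peak (chr19:10228519-10232311, 3793 bp) had 155.0 and 155.3 CPM in DMSO, 152.8 and 160.3 CPM at 150 nM, and 129.7 and 130.4 CPM at 500 nM. The 500 nM libraries were the lowest and overlapped with neither other group. The fall was 0.838-fold against DMSO (log2 fold change -0.25, SE 0.037, adjusted p = 6.24e-08) and -0.27 on the log2 scale against 150 nM (adjusted p = 2.12e-08). The microRNA gene MIR4322 lies under the same peak.

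An interior S1PR2 peak of 816 bp (chr19:10227196-10228011), centred 3728 bp inside the gene, had 5.47 and 5.80 CPM in DMSO, 6.45 and 5.49 CPM at 150 nM, and 2.38 and 2.04 CPM at 500 nM. Both 500 nM libraries were again lowest, and the DMSO and 150 nM libraries overlapped. The level at 500 nM was 0.397 of that in DMSO (log2 fold change -1.33, SE 0.24, 95% interval -1.82 to -0.85, adjusted p = 8.52e-06), on 20 and 28 counts against 67 and 59. Against 150 nM it was -1.42 (SE 0.24, adjusted p = 2.08e-06). Of the other 3 S1PR2 peaks, those at the distal end of the gene gave -0.49 (adjusted p = 0.135) and -0.57 (0.491). The one 4688 bp upstream gave 0.16 (0.426), so none passed in the main fit. With loess offsets on abundance the first distal peak was called, at -0.80 against DMSO (adjusted p = 0.0121) and -0.74 against 150 nM (0.0210). The second distal peak was called against 150 nM only (-1.62, adjusted p = 0.0230). Only the upstream peak had a positive estimate, with 9.95 and 9.70 CPM at 500 nM and 9.06 and 8.55 CPM in DMSO. Its 95% interval was -0.14 to 0.45, so a difference in direction along the locus was not shown.

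**Figure D2:**
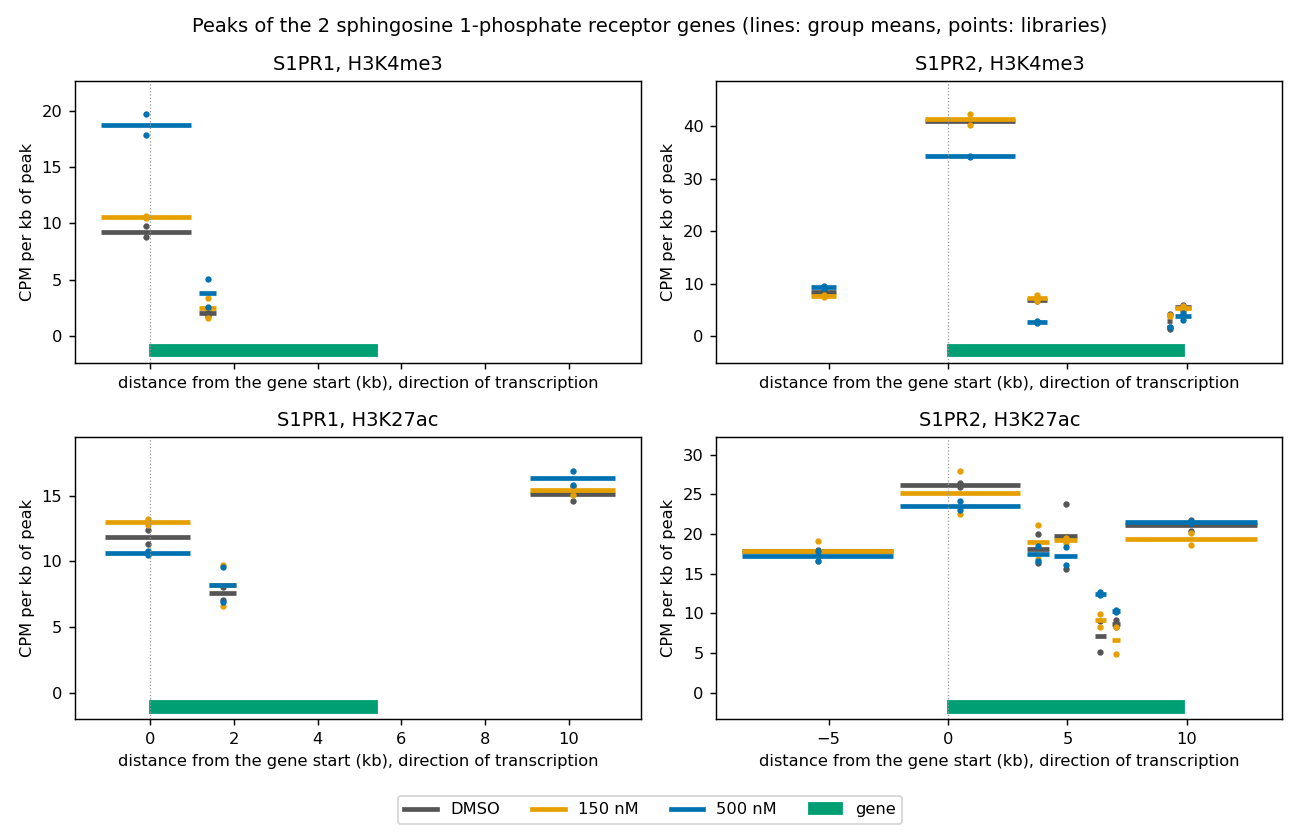
Mean level per peak (CPM per kb, vertical axis) against distance from the gene start (kb, horizontal axis) around S1PR1 and S1PR2 for H3K4me3 and H3K27ac, with each horizontal bar a peak drawn to its length and colours for DMSO, 150 nM and 500 nM. Over the S1PR1 start the 500 nM H3K4me3 level stands above the others (40.5 against 20.0 CPM per peak in DMSO) while the H3K27ac levels lie close together, and over S1PR2 the 500 nM H3K4me3 level is the lowest at the start.

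GNA13 encodes Gα13, which carries the S1PR2 signal into the cell. Its start peak (chr17:65054093-65057693, 3601 bp, minus strand) had 144.7 and 154.5 CPM in DMSO, 143.2 and 144.8 CPM at 150 nM, and 127.0 and 138.4 CPM at 500 nM. Both 500 nM libraries lay below the other 4, but replicate 1 lay much lower than replicate 2. The log2 fold change was -0.17 against DMSO (SE 0.039, adjusted p = 0.000248) and -0.12 against 150 nM (adjusted p = 0.0105). Without 500 nM replicate 1 these were -0.11 (adjusted p = 0.0561) and -0.06 (adjusted p = 0.364), so both calls were lost. The call against 150 nM was also lost without 150 nM replicate 1 (adjusted p = 0.0513) or replicate 2 (0.0899), in DESeq2 (0.218), with total-count scaling (0.0565) and with loess offsets on abundance (-0.05, 0.295). The loess value against DMSO was -0.10 (adjusted p = 0.0259). The 2 small peaks inside GNA13 gave 0.25 (adjusted p = 0.427) and -0.71 (0.230) against DMSO. With loess offsets the second of them (chr17:65039111-65039487) was called lower, at -1.20 against DMSO (adjusted p = 0.0381) and -1.43 against 150 nM (0.00901). Its value against 150 nM was -1.01 in the main fit, -1.44 without 150 nM replicate 2 and -1.62 without 500 nM replicate 1.

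Of the chemokine receptors, CXCR5 fell and CXCR4 did not change detectably. The CXCR5 peak (chr11:118883263-118888225, 4963 bp), which spans the outer start of the gene but not the start in the promoter table, had 136 and 123 CPM in DMSO, 127 and 133 CPM at 150 nM, and 112 and 109 CPM at 500 nM. The 500 nM libraries were the lowest and the other 2 groups overlapped. The level was 0.851 of that in DMSO (log2 fold change -0.23, SE 0.042, adjusted p = 7.00e-06), and the difference from 150 nM was also -0.23 (adjusted p = 1.18e-05).

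The CXCR4 peak (chr2:136114452-136119861, 5410 bp) covers all 3 of its RefSeq starts and had 258 and 266 CPM in DMSO, 255 and 259 CPM at 150 nM, and 260 and 256 CPM at 500 nM. The 3 groups overlapped. The log2 fold change was -0.02 against DMSO (95% interval -0.078 to 0.039, adjusted p = 0.630) and 0.0091 against 150 nM. With the loess offsets the value became 0.08 (adjusted p = 0.0144), so the direction at CXCR4 depends on the scaling.

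CCR7, which guides lymphocytes to the T-cell zone, had low H3K4me3. Its stronger peak (chr17:40564396-40565504, 1109 bp) had 8.90 and 10.0 CPM in DMSO, 8.78 and 6.51 CPM at 150 nM, and 9.95 and 9.80 CPM at 500 nM. The 500 nM and DMSO libraries overlapped, and the 150 nM libraries lay below both 500 nM libraries. The difference from DMSO was 0.07 (adjusted p = 0.748) and that from 150 nM 0.37 (adjusted p = 0.0615). Against 150 nM it passed without 150 nM replicate 1 (0.60, adjusted p = 0.0186) and with total-count scaling (0.40, adjusted p = 0.0450). A second CCR7 peak (chr17:40560114-40560984) gave 0.41 against DMSO (SE 0.20, adjusted p = 0.0951).

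GPR183, the oxysterol receptor that draws B cells to the outer follicle, lies on the minus strand inside UBAC2. Its peak (chr13:99303729-99308019, 4291 bp) had 84.4 and 79.1 CPM in DMSO, 83.4 and 81.7 CPM at 150 nM, and 64.7 and 70.6 CPM at 500 nM. Both 500 nM libraries lay below the rest. The level was 0.822 of that in DMSO (log2 fold change -0.28, SE 0.050, adjusted p = 5.05e-06) and differed from 150 nM by -0.29 (adjusted p = 2.73e-06).

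The neighbouring genes RGS1 and RGS13, GTPase-activating proteins that end G protein signals, moved in opposite directions at their starts. RGS1 (chr1:192575547-192576819, 1273 bp) had 4.25 and 4.81 CPM in DMSO, 5.46 and 6.05 CPM at 150 nM, and 7.91 and 6.23 CPM at 500 nM. The groups did not overlap, but 500 nM replicate 2 (6.23 CPM, 61 counts) lay only just above 150 nM replicate 2 (6.05 CPM, 65 counts). An order by dose was therefore not shown. The level was 1.58-fold higher at 500 nM than in DMSO (log2 fold change 0.66, SE 0.20, 95% interval 0.27 to 1.05, adjusted p = 0.00503), while the steps from 150 nM to 500 nM (0.31, adjusted p = 0.186) and from DMSO to 150 nM (0.35, adjusted p = 1.00) did not pass. The RGS1 call was lost without DMSO replicate 1 (adjusted p = 0.0638) or 500 nM replicate 1 (0.150), in DESeq2 (0.123), and with offsets fitted to abundance by loess (log2 fold change 0.44, adjusted p = 0.0701). Each RGS1 library held 49 to 93 counts.

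RGS13 (chr1:192634580-192639830, 5251 bp) had 56.8 and 61.2 CPM in DMSO, 63.4 and 57.9 CPM at 150 nM, and 53.6 and 46.0 CPM at 500 nM. The 500 nM libraries were the lowest, with replicate 2 well below replicate 1. The log2 fold change was -0.23 against DMSO (SE 0.061, adjusted p = 0.00181) and -0.28 against 150 nM (adjusted p = 0.000201). Without 500 nM replicate 2 the call against DMSO was lost (-0.14, adjusted p = 0.120), as it was in DESeq2 (0.100), and the value against 150 nM was -0.18 (adjusted p = 0.0317). Without 500 nM replicate 1 the value against DMSO was -0.36 (adjusted p = 6.83e-05). The peaks on either side of it gave 0.31 (adjusted p = 0.181) upstream and 0.28 (0.733) inside the gene. With loess offsets the peak inside the gene was called lower against 150 nM (-1.23, adjusted p = 0.0403).

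CD83, a surface marker of light zone and activated B cells, showed no detectable change. Its peak (chr6:14117039-14119288, 2250 bp, over both RefSeq starts) had 86.1 and 85.9 CPM in DMSO, 85.5 and 83.4 CPM at 150 nM, and 87.7 and 85.2 CPM at 500 nM. Libraries at 500 nM overlapped with both other groups, and the 150 nM libraries lay just below the DMSO libraries. The log2 fold change at 500 nM was 0.01 against DMSO (95% interval -0.082 to 0.097, adjusted p = 0.912).

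**Figure D3:**
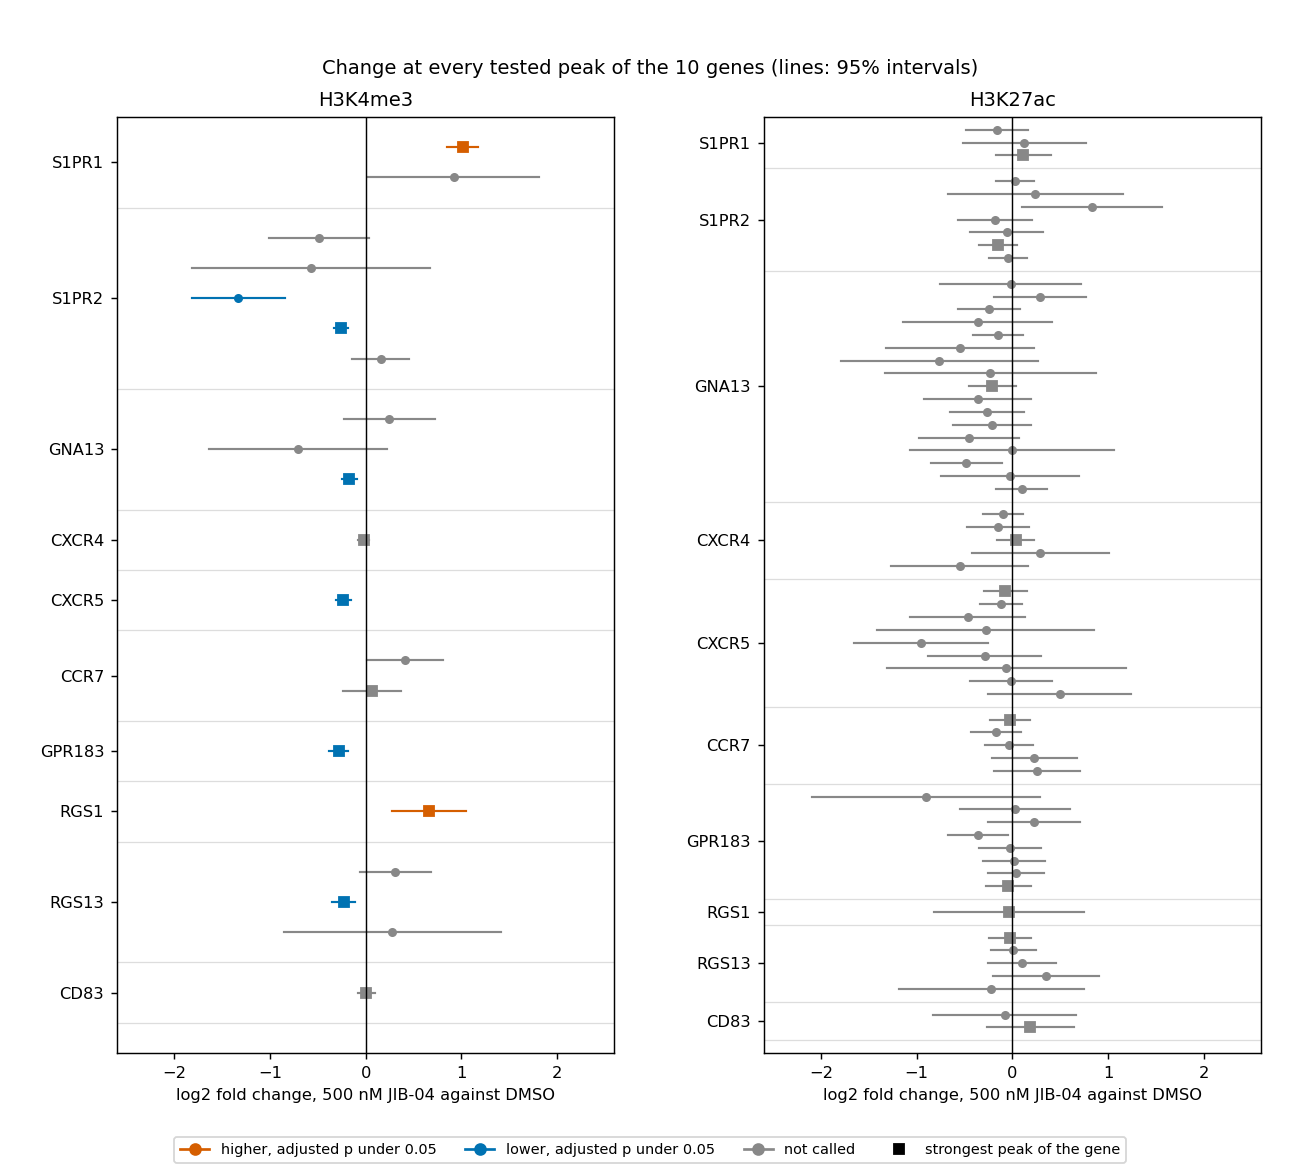
Log2 fold change at 500 nM against DMSO (horizontal axis) for all 20 H3K4me3 and 62 tested H3K27ac member peaks grouped by gene, with 95% intervals; squares are each gene's strongest peak, orange marks higher and blue lower after adjustment, grey not called. H3K4me3 shows 2 orange and 6 blue peaks, and every H3K27ac peak is grey.

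Per length of peak, the H3K4me3 level in DMSO was highest at CXCR4 (48.5 CPM per kb), followed by GNA13 (41.5), S1PR2 (40.9), CD83 (38.2), CXCR5 (26.1), GPR183 (19.1), RGS13 (11.2), S1PR1 (9.26), CCR7 (8.53) and RGS1 (3.56). The DMSO libraries of GNA13 and S1PR2 overlapped, as did those of S1PR1 and CCR7, so neither pair is ordered beyond its spread. The 2 genes whose start peaks rose, S1PR1 and RGS1, were thus among the 3 lowest, and no gene above S1PR1 in this order rose. This order holds only the strongest peak of each gene. The S1PR2 interior peak, which fell, had 6.90 CPM per kb in DMSO.

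Over all tested peaks the direction was set against another measure, the mean count over the 6 libraries, which is not divided by peak length. When the 20402 tested peaks were ranked by mean count into 5 equal groups, 26.1% of the lowest group were called higher and 4.58% lower at 500 nM against DMSO, while in the highest group 4.80% were called higher and 34.2% lower. The median log2 fold change moved from 0.44 in the lowest to -0.059 in the highest. S1PR1 lay in the middle group, where 29.1% were higher and the median was 0.017, and RGS1 in the group below, where 34.1% were higher and the median was 0.20. The S1PR2 interior peak lay in that same lower group, where 12.8% of peaks fell. The other 5 members that fell lay in the upper groups, 3 of the 4 members in the highest and 2 of the 3 in the next. The depth of a peak thus moved with the direction of the change, and its part in the members' values was not tested.

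**Figure D4:**
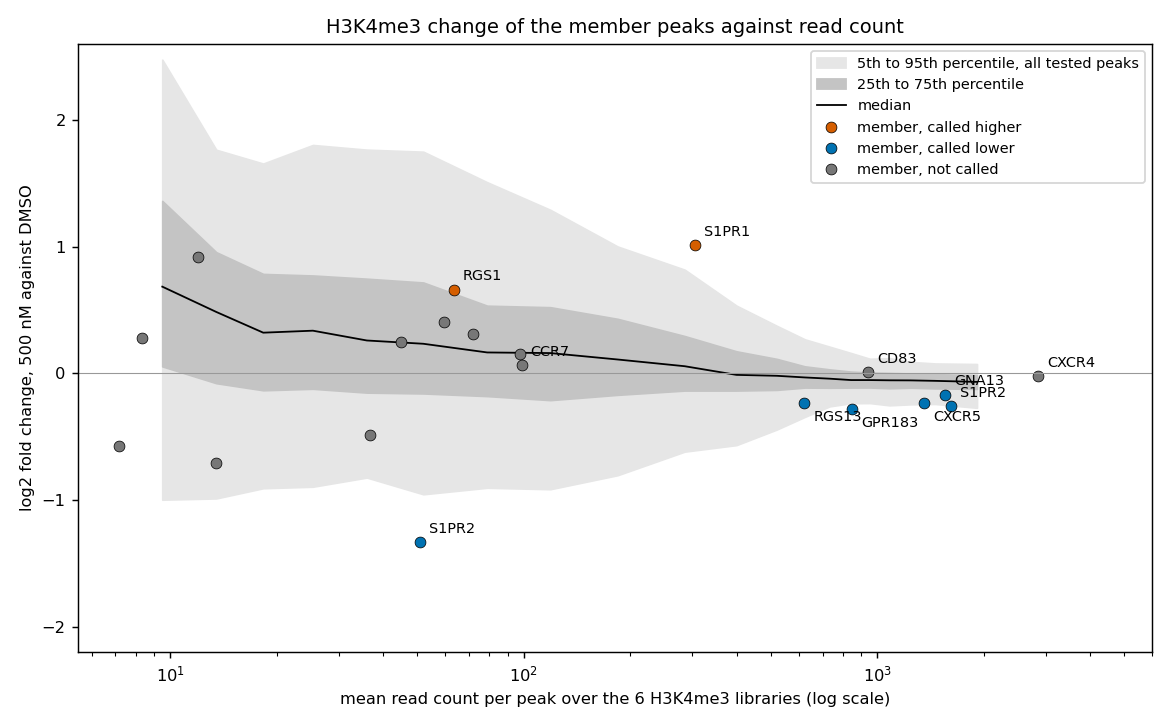
H3K4me3 log2 fold change at 500 nM against DMSO (vertical axis) against mean count per peak (horizontal log axis); shaded bands hold the 25th to 75th and the 5th to 95th percentile of all 20402 tested peaks, and points are the 20 member peaks. The bands slope down from left to right, with S1PR1 above them and the S1PR2 interior peak and GPR183 below. The S1PR2 start peak lies at their lower edge.

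For H3K27ac no member peak passed in any comparison, and the lowest adjusted p-values were 0.226, 0.373 and 1.00. Across all 54037 tested peaks the share called was 0.923% at 500 nM against DMSO (0.692% higher, 0.231% lower), 1.27% at 500 nM against 150 nM (1.09% higher, 0.185% lower) and 0.00185% at 150 nM against DMSO. The libraries did not overlap at 28, 29 and 18 of the 62 tested member peaks, against 44.6%, 38.6% and 30.5% of all tested peaks. Of the 62 member peaks tested, 4, 2 and 3 had an unadjusted p under 0.05 in edgeR, where 11.5%, 10.2% and 3.94% of all peaks did, and DESeq2 called none. Without 150 nM replicate 1, 3 of 64 passed at 500 nM against 150 nM: RGS13 peaks chr1:192632054-192637294 (0.36, adjusted p = 0.0324) and chr1:192638149-192640995 (0.72, 0.00471) and a GPR183 peak starting at 99297313 on chromosome 13 (1.28, 0.0182). Without that library 3.53% of all tested peaks passed in this comparison. In simulated counts, 200 peaks per mark were changed by 1 on the log2 scale at 500 nM. For H3K27ac 43% of them were recovered against DMSO and 43.5% against 150 nM. For H3K4me3 the shares were 78% and 81.5%, so changes of that size are missed more often for H3K27ac. The shares called over all peaks depend on single libraries. Against DMSO, 499 peaks were called at 500 nM with all libraries. That number was 229 or 117 without DMSO replicate 1 or 2, 1900 or 1828 without 150 nM replicate 1 or 2, and 201 or 133 without 500 nM replicate 1 or 2. At 500 nM against 150 nM, 687 became 2110 without 150 nM replicate 1, and 368 or 295 without 500 nM replicate 1 or 2. At 150 nM against DMSO, 1 became 508 or 15 without 150 nM replicate 1 or 2, 4 without either DMSO library, and 0 without either 500 nM library.

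Over the S1PR1 start the H3K27ac level (chr1:101235833-101237860) was 23 and 25.1 CPM in DMSO, 25.9 and 26.8 CPM at 150 nM, and 21.9 and 21.3 CPM at 500 nM. The 500 nM libraries were the lowest, whereas for H3K4me3 they were the highest. The log2 fold change was -0.16 (95% interval -0.48 to 0.17, adjusted p = 0.769). The strongest S1PR1 H3K27ac peak lay 3649 bp beyond the gene (chr1:101245962-101248011) with 32.2 and 29.9 CPM in DMSO and 34.7 and 32.5 CPM at 500 nM (0.12, adjusted p = 0.818).

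At the S1PR2 start the H3K27ac level (chr19:10228326-10233332) was 132 and 130 CPM in DMSO, 112 and 140 CPM at 150 nM, and 115 and 121 CPM at 500 nM. The 500 nM libraries lay below DMSO, as for H3K4me3, and the 150 nM pair spanned both (-0.15, 95% interval -0.35 to 0.047, adjusted p = 0.590). Over the S1PR2 interior peak, where H3K4me3 had fallen to 0.397 of its DMSO level, H3K27ac was 15.4 and 18.9 CPM in DMSO and 15.6 and 17.4 CPM at 500 nM. These overlapped (-0.06, 95% interval -0.44 to 0.32).

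Of the 17 tested GNA13 peaks for H3K27ac, 2 had a positive and 15 a negative estimate at 500 nM against DMSO, from -0.76 to 0.29, and none passed. Neighbouring peaks of 1 gene share their libraries and are not replicates. The strongest, inside the gene (chr17:65035902-65039962), had 53.6 and 55 CPM in DMSO, 54.2 and 53.5 CPM at 150 nM, and 51.2 and 42.6 CPM at 500 nM (-0.21, adjusted p = 0.543). Replicate 2 at 500 nM was the lowest by a wide margin.

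CXCR4 had 125 and 130 CPM of H3K27ac over its start in DMSO and 130 and 132 CPM at 500 nM, with a log2 fold change of 0.04. The CXCR5 start peak had 77.9 and 77.4 CPM in DMSO and 69.9 and 73.3 CPM at 500 nM (-0.12, 95% interval -0.33 to 0.10). The strongest CXCR5 peak, 4178 bp upstream of the gene, had 77.5 and 92.1 CPM in DMSO and 87.0 and 74.3 CPM at 500 nM (-0.07). The smallest adjusted p of all H3K27ac member peaks at 500 nM against DMSO, 0.226, belonged to a CXCR5 peak (chr11:118890758-118891607) with 4.83 and 6.62 CPM in DMSO and 3.20 and 2.74 CPM at 500 nM. It lay lower in both 500 nM libraries than in any other, at -0.95 on the log2 scale.

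The strongest H3K27ac peak near CCR7, 3687 bp outside the gene, had 87.8 and 84.0 CPM in DMSO and 82.1 and 86.8 CPM at 500 nM. Its log2 fold change was -0.02. That of GPR183, 1761 bp upstream of the gene, had 61.6 and 57.6 CPM in DMSO and 59.0 and 56.7 CPM at 500 nM (-0.04). That of RGS13, 4223 bp upstream of the gene, had 80.9 and 77.8 CPM in DMSO and 81.2 and 74.7 CPM at 500 nM (-0.03). DMSO and 500 nM libraries overlapped at all 3. They also overlapped at the peaks over the starts of GPR183 and RGS13. The GPR183 start peak had 29.9 and 25.3 CPM in DMSO and 31.8 and 23.9 CPM at 500 nM (0.02). The RGS13 start peak had 78.9 and 73.0 CPM in DMSO and 78.9 and 73.9 CPM at 500 nM (0.01). Summed over its peaks, CCR7 had 197 CPM of H3K27ac over 10.0 kb in DMSO, or 19.6 CPM per kb. CD83 had 14.1 CPM over 0.943 kb, or 15.0 CPM per kb, and RGS1 3.54 CPM over 0.439 kb, or 8.07 CPM per kb. The genes thus differed more in the length covered than in the level per kb.

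**Figure D5:**
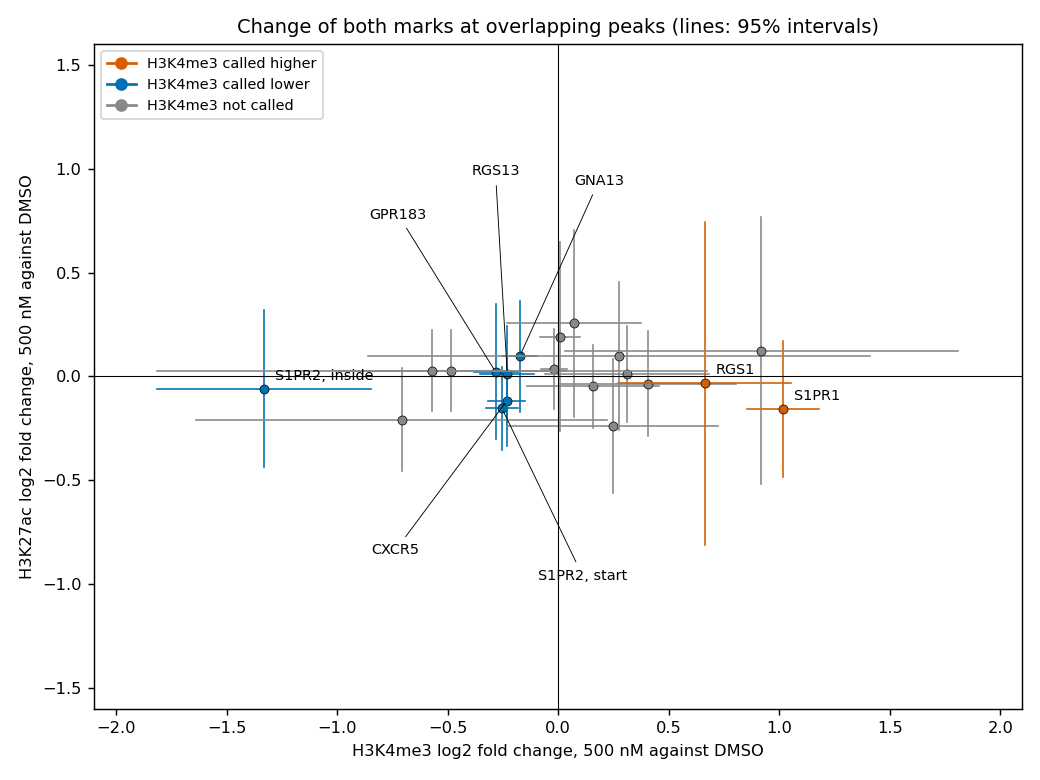
H3K4me3 (horizontal) and H3K27ac (vertical) log2 fold change at 500 nM against DMSO for each H3K4me3 member peak and the H3K27ac peak that overlaps it most, with 95% intervals. S1PR1 lies far to the right at an H3K27ac value of -0.16 and the S1PR2 interior peak far to the left at -0.06; every H3K27ac interval includes 0.

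Other genes of these pathways were counted at the strongest peak within 5 kb of each, from lists chosen with earlier results known, and the named genes are those with the largest called change at a peak near a start. Each count is to be read against all tested H3K4me3 peaks, of which 20.7% rose and 18.7% fell with a median of -0.0063. These shares change with mean count, from 26.1% higher and 4.58% lower in the lowest group to 4.80% and 34.2% in the highest. The peaks of the lists were not matched for count. For sphingosine and Gα13 signalling, 12 of 15 genes had a tested H3K4me3 peak, of which 3 rose and 4 fell at 500 nM against DMSO (median -0.040). Named here were KLF2, a transcription factor that drives S1PR1 expression (6.34 ± 0.625 to 12 ± 0.292 CPM, log2 fold change 0.91, adjusted p = 3.16e-06), SPHK1, a sphingosine kinase (73.3 ± 0.672 to 94.7 ± 1.41 CPM, 0.37, adjusted p = 1.04e-09), and GNA12, the paralogue of GNA13 (0.28, adjusted p = 0.00117). All 3 were higher, and SD values here are over n = 2.

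For chemokine and oxysterol receptors and their effectors, 14 of 19 genes were tested, with 4 higher and 6 lower (median -0.11). CH25H, which makes the precursor of the GPR183 ligand, went from 5.28 ± 0.384 to 14.8 ± 1.49 CPM (1.49, adjusted p = 6.47e-12). CCR10, a chemokine receptor, went from 1.27 ± 0.403 to 3.90 ± 0.833 CPM at a weak peak near its start (1.57, adjusted p = 4.08e-05), while its strongest peak went from 86.3 ± 1.41 to 100.1 ± 2.97 CPM (0.21, adjusted p = 6.63e-05). RAC2, a small GTPase of blood cells, fell from 130 ± 2.22 to 106 ± 5.45 CPM (-0.30, adjusted p = 1.12e-08).

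Among other RGS genes 4 rose and 3 fell of 8 tested of 10 (median 0.15), including RGS9 (0.69, adjusted p = 0.00467), RGS16 (62.2 ± 0.101 to 90.1 ± 1.87 CPM, 0.54, adjusted p = 3.86e-14) and RGS14 (-0.38, adjusted p = 9.92e-08).

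Of 10 light zone genes 5 rose and 1 fell (median 0.13). LMO2, a transcriptional cofactor of germinal centre B cells, went from 1.10 ± 0.299 to 6.32 ± 0.161 CPM at a start peak (2.49, adjusted p = 7.93e-11) and from 3.78 ± 0.202 to 7.68 ± 1.12 CPM at its strongest peak (1.01, adjusted p = 4.51e-05). EGR3, an immediate early transcription factor, gave 0.63 (adjusted p = 2.86e-08). CD40, the receptor for T-cell help, fell from 57.1 ± 2.84 to 39.2 ± 1.83 CPM (-0.54, adjusted p = 5.84e-11). Of the dark zone genes reported, 2 fell: TCF3, an E-protein, gave -0.27 (adjusted p = 2.19e-08) and FOXP1, a forkhead transcription factor, -0.10 (adjusted p = 0.00734). For H3K27ac, 1 of the 52 genes tested in the 5 lists passed at 500 nM against DMSO, where 0.923% of all peaks did. It was LMO2 (40.9 ± 6.81 to 57.9 ± 1.67 CPM, 0.49, SE 0.13, adjusted p = 0.0416).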

How the data were processed

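OCI-Ly1 chromatin was fixed with formaldehyde, sheared to 300 to 800 bp, was sequenced as 50 bp single reads, per the labels' protocols. The authors deposited whole-number counts per consensus peak, 1 table per mark; per the file headers they were made with featureCounts 2.0.1 without strand, counting overlaps of at least 0.2 of a read. The header also carries a paired-read option, so whether a count is a read or a fragment is uncertain. The submitters' processing notes name GRCh38, Trim Galore 0.6.7, BWA 0.7.17-r1188, Picard 2.27.4, MACS2 2.2.7.1, deepTools 3.5.1 and edgeR 3.42.4, with no roles.

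Per mark, 1 edgeR 4.0.16 quasi-likelihood model was fitted in R 4.3.3 to all 6 libraries, after filterByExpr and TMM scaling over all peaks, with Benjamini-Hochberg adjustment at 0.05. CPM uses TMM-scaled totals of tested peaks. SE is the absolute log2 fold change over the square root of F, and intervals cover 95%. Peak starts count from 0 in the files, and 1 was added. Gene positions and promoters come from RefSeq GRCh38.p14; exons and introns were not analysed here. The fit was checked on simulated data, with the shares recovered given beside the H3K27ac results. DESeq2 1.42.0, other scalings, filters, windows, a replicate block, a term for a split of the H3K27ac libraries and left-out libraries were alternatives. Summing the 150 nM H3K4me3 libraries was added after the data were seen. The members and gene lists were chosen with earlier results of these data known. Named were all 10 members, the strongest and every called peak of each, and, per list, up to 3 genes with the largest called change near a start; other member peaks are named for their position or because a setting changed them. The result of 1 dark zone gene is not reported here. Library totals and counts per peak set the precision.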

Additional observations from a re-analysis of the deposited data

Results flagged for a closer look

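At 3 places the 500 nM libraries lay on opposite sides of the DMSO libraries in the 2 marks, and whether the 2 marks differ there was not tested. Over the S1PR1 start, both 500 nM libraries lay above both DMSO libraries for H3K4me3 (log2 fold change 1.02, 95% interval 0.85 to 1.18) and below both for H3K27ac (-0.16, 95% interval -0.48 to 0.17). Over the GNA13 start the order was the reverse, with H3K4me3 lower (-0.17) and H3K27ac higher (0.10, adjusted p = 0.843, not called). At a peak inside GNA13 (chr17:65023348-65024333) H3K4me3 lay higher (0.25, adjusted p = 0.427) and H3K27ac lower (-0.24), with neither called. The groups hold 2 libraries each, so such an order is common: the groups did not overlap at 68% of all tested H3K4me3 peaks and at 44.6% of all H3K27ac peaks.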

How the results depend on the processing

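The S1PR1 start, both S1PR2 peaks, CXCR5 and GPR183 kept their H3K4me3 calls in both 500 nM comparisons under every setting run. Over 15 called results and 225 alternatives, no sign changed and 212 calls held; those lost were at RGS1, RGS13 and GNA13. The count of H3K4me3 member peaks called at 500 nM against DMSO (8) was 6 to 8 with 1 library left out, 6 in DESeq2 and 10 with loess offsets on abundance; at 500 nM against 150 nM (7) it was 7 to 7, 6 and 11. Over all peaks the loess offsets called 33.8% and 34.5%. At 150 nM against DMSO it was 0 to 0. For H3K27ac the counts with 1 library left out were 0 to 0, 0 to 3 and 0 to 0 in the same order, the 3 arising without 150 nM replicate 1. Where the H3K4me3 count stayed at 7, the peaks were not always the same. The GNA13 start peak gave way to a CCR7 peak without 150 nM replicate 1. It gave way to a peak inside GNA13 without 150 nM replicate 2 or 500 nM replicate 1. The cause of these changes was not tested. Over all peaks, DESeq2 called 3479 H3K4me3 peaks at 500 nM against DMSO where edgeR called 8034, and 3473 where edgeR called 7988 against 150 nM. For H3K27ac DESeq2 called 114 and 200 where edgeR called 499 and 687. The replicate block gave 1150 and 1186, and fitting only the 4 libraries compared gave 2105 and 433. A term that set DMSO replicate 2 and 150 nM replicate 2 apart from the other H3K27ac libraries gave 1274 and 913. This split is unbalanced, as no 500 nM library is on its smaller side, and its source was not tested. With 10 kb around each gene 9 of 21 H3K4me3 peaks were called against DMSO, and with 0 kb 8 of 18. With the replicate number as a block the counts were 8, 7 and 0 for H3K4me3 and 0 for H3K27ac in all. Deviations of libraries with the same number correlated at 0.0047 to 0.049 for H3K4me3 and 0.0026 to 0.13 for H3K27ac. These values show no clear pairing, but deviations made up largely of counting noise cannot exclude one. Counts of 20 to 93 per library limit the RGS1 and S1PR2 interior values.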

Other observations

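Other H3K27ac peaks of these genes had small unadjusted p-values in edgeR and failed the adjustment at 500 nM against DMSO. A peak inside S1PR2 (chr19:10224737-10225167) had 3.91 and 2.21 CPM in DMSO, 4.25 and 3.58 CPM at 150 nM, and 5.46 and 5.28 CPM at 500 nM, highest in both 500 nM libraries (log2 fold change 0.83, adjusted p = 0.353). A peak inside GNA13 (chr17:65049214-65051097) gave -0.48 (adjusted p = 0.262) and a GPR183 peak (chr13:99301056-99303385) -0.36 (adjusted p = 0.346).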
